A study of Mus musculus with 16 samples.

Results

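The BCL2 family of cell death regulators was followed through 16 RNA-seq libraries of mouse bone marrow derived macrophages (BMDM). The members were taken by name, and all 9 of them have a row among the 9614 genes of the deposited table: 3 pro-survival members (Mcl1, Bcl2l1 and Bcl2), 2 effectors (Bax and Bak1) and 4 BH3-only members (Bcl2l11, Bid, Bbc3 and Pmaip1). The cells came from 6 male C57BL/6 mice of 8 weeks, 3 of each genotype. WT mice were LysM-Cre:NELF-B wt/wt and therefore carried the Cre as well, and NELF-B KO mice were LysM-Cre:NELF-B fl/fl, in which Cre from the myeloid Lyz2 locus removes a floxed exon of Nelfb, the gene of a subunit of the negative elongation factor that holds RNA polymerase II near promoters. The BMDM of 2 mice per genotype were left untreated, and those of all 3 mice per genotype were exposed for 1 hr to LPS (10 ng/ml), the outer membrane endotoxin of Gram-negative bacteria, alone (L) or together with 100 nM dexamethasone (Dex), a synthetic glucocorticoid (LD). The letters A, B and C tell the mice of a genotype apart, and mouse C of either genotype has no untreated library here.

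BCL2 family proteins set the threshold for the mitochondrial pathway of apoptosis. The effectors BAX and BAK open the outer mitochondrial membrane and release cytochrome c, which leads to caspase activation, while MCL1, BCL-XL (from Bcl2l1) and BCL2 bind and restrain both the effectors and the BH3-only proteins. BH3-only proteins carry death signals: BIM (Bcl2l11) and BID activate the effectors directly, PUMA (Bbc3) binds the pro-survival proteins broadly, and NOXA (Pmaip1) binds mainly MCL1. Activated macrophages survive exposure to bacterial products in part through inducible pro-survival members, and glucocorticoids kill lymphoid cells in part through BIM, while many myeloid and epithelial cells tolerate them.

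The deleted gene had the level its label calls for: Nelfb ranged from 5.59 to 6.21 log2 CPM in the 8 WT libraries and from 3.27 to 4.38 in the 8 KO libraries, with reads from outside the floxed exon still counted. Of 9 macrophage markers 8 have a row, with summed levels of 6680 to 9510 CPM, although Lyz2, the gene that carries the Cre, stood at only 4.30 to 6.33 log2 CPM and Adgre1 has no row. The libraries held 22100000 to 45900000 reads after scaling, recovered from the steps of the deposited values, so that even the member with the fewest reads, Bcl2, had 144 to 312 of them in every library. The untreated library of WT mouse A stood apart, with a Pearson r across genes of 0.83 to 0.909 with the other 15, which had r of 0.924 to 0.993 among themselves. Where a call against the untreated WT group changed without it, the value without it is also given, as it is for several other differences. The means and ranks of that group include it.

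Levels are log2 CPM (reads of a gene scaled to the size of the library) as deposited, and the levels of different genes are compared only after division by transcript length. Per kilobase of annotated exon, Mcl1 was the most abundant member in all 6 groups (7.74 log2 CPM per kb in untreated WT and 8.50 under LPS), Bax came next (7.09 and 6.43), and Bcl2 was last (-0.57 and -0.18). Between these ends the order moved with treatment. In WT, Bcl2l11 went from rank 5 to rank 3 and Pmaip1 from rank 8 to rank 4 between untreated cells and LPS. Bcl2l1 went from rank 3 to rank 5. By the longest transcript the untreated rank of Bcl2l11 was 4. These untreated WT values include mouse A, and the ranks were not taken without it. Untreated Bax was 8.36 log2 CPM in mouse A and 7.12 in mouse B, and untreated Bcl2l11 was 6.36 and 6.90. Under LPS in WT, the mean ± SD ranges of Bcl2l1 (3.99 ± 0.20, SD, n = 3), Pmaip1 (4.16 ± 0.41) and Bak1 (3.72 ± 0.17) overlapped. Those of Bbc3 (2.91 ± 0.41) and Bid (2.84 ± 0.20) overlapped too. With the longest transcript in place of all exons, 5 of the 9 members kept their rank under LPS in either genotype.

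Promoter sequences are shown for the 4 members whose levels the results below turn on and that have an entry in the RefSeq table used here (build GRCm38.p6, 250 bases before to 50 after an annotated start), 5′ to 3′ on the strand of the gene. Capitals mark GGGCGG, the GC box core, on either strand, and in the second Bcl2l1 window and the Bbc3 window also the 10-base NF-kB consensus.
Mcl1, chr3:95658471-95658770, plus strand: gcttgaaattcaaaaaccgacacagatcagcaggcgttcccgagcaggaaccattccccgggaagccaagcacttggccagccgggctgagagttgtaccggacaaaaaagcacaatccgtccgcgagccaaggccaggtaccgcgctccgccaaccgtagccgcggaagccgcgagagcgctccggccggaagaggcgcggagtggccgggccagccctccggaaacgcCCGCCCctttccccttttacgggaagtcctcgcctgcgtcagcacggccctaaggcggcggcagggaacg
Bcl2l11, chr2:128125788-128126087, plus strand: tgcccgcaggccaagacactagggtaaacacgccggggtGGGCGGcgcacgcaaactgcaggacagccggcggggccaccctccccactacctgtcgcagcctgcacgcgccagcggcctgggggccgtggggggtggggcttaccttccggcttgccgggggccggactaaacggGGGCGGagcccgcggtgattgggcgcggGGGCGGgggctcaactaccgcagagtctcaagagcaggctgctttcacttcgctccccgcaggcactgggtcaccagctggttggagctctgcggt
Bcl2l1, chr2:152831679-152831978, minus strand: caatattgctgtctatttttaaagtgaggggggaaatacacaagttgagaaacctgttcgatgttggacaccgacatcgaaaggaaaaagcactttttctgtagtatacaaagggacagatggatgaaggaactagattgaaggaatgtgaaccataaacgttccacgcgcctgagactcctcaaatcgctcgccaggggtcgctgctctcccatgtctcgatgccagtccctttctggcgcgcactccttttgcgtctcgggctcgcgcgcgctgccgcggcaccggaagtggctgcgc
Bcl2l1, chr2:152830668-152830967, minus strand: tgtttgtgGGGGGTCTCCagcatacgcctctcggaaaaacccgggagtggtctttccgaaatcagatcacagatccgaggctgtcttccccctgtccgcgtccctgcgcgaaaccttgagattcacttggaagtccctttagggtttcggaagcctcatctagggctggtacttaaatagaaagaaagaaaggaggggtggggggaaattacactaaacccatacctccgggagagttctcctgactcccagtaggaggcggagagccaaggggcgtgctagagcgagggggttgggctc
Bbc3, chr7:16309333-16309632, plus strand: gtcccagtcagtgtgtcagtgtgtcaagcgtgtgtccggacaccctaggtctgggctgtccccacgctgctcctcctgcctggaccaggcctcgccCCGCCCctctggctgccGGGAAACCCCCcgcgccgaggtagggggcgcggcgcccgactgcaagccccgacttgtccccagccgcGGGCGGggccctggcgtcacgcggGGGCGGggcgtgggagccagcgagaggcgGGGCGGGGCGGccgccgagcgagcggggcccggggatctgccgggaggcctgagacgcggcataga

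Of the 9 members 8 matched the RefSeq table, with 13 windows in all. Bcl2l11, Bcl2l1 and Bbc3 have further windows that are not printed, and the window of a gene below is the printed one. The NF-kB consensus, searched by name on both strands, occurs in the Bcl2l1 window that starts at 152830668 (bases -242 to -233 from its start site). It also occurs in the printed Bbc3 window, where 3 matches overlap within bases -137 to -127. The other Bbc3 windows, which start at 16310011 and 16310181, hold none. Of 32851 promoters of this length, 8.46% hold the consensus. No member window holds TGANTCA, the AP-1 site (7.81% of promoters), TGACGTCA, the full cAMP response element (1.79%), the palindromic glucocorticoid response element (0.0487%), its single arm AGAACA (19.0%) or TATAAA (13.6%). The GC box core, in 35.7% of promoters, occurs once in the Mcl1 window, 3 times in the Bcl2l11 window and in neither Bcl2l1 window printed above. The Mcl1 window has 65.7% G and C, the Bcl2l11 window 71.0%, the Bbc3 window 76.0% and the Bcl2l1 windows 52.3% and 55.7% in the order printed, against a median of 52.7% over all promoters. A match describes the letters of the window only. In the GENCODE vM21 annotation of the same assembly, these are protein-coding genes at chr3:95658788-95663176 (Mcl1), chr2:128126038-128162547 (Bcl2l11), chr2:152780668-152831728 (Bcl2l1) and chr7:16308393-16318205 (Bbc3).

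Exposure to LPS for 1 hr raised 3 of the 9 members in WT and the same 3 in NELF-B KO: the pro-survival Mcl1 and the BH3-only members Bcl2l11 and Pmaip1. The table as a whole had 6.91% of genes called in WT (4.63% higher) and 4.01% in KO (2.92% higher), at an adjusted p under 0.05 in limma. The members were picked by name with earlier results known, so these shares are a description and not a test of the family. The median log2 change of the 9 members was 0.39 in WT and 0.11 in KO, against 0.02 and -0.01 over all genes.

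**Figure D1:**
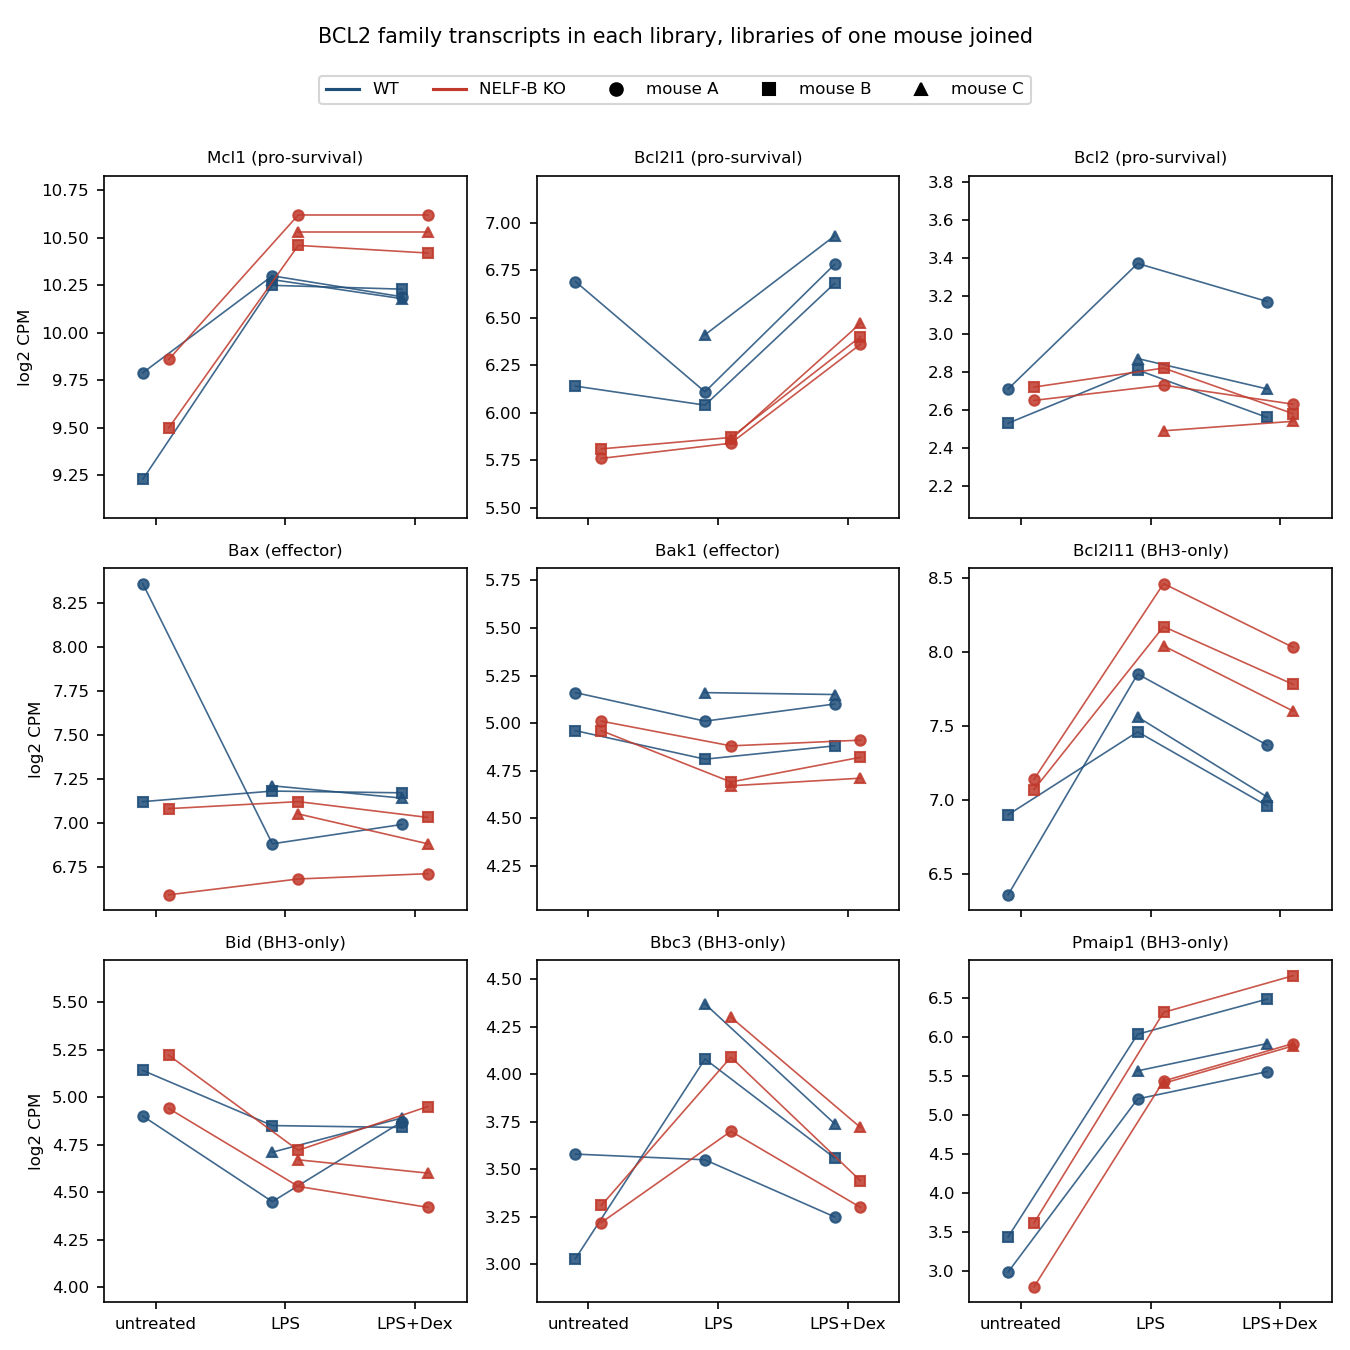
Log2 CPM of each member (vertical axes, 1 panel per gene, scales differ) in untreated, LPS and LPS + Dex libraries (horizontal axis). Points are libraries, lines join libraries of the same mouse, WT in blue and NELF-B KO in red; Pmaip1 and Bcl2l11 climb from untreated to LPS in every mouse, Bcl2l1 climbs from LPS to LPS + Dex, and WT mouse A has the highest untreated Bax (8.36).

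Pmaip1, the transcript of NOXA, had the largest change of the family. It stood at 2.99 and 3.44 log2 CPM in the 2 untreated WT libraries and at 5.21, 6.04 and 5.57 in the LPS libraries of mice A, B and C. In KO it stood at 2.80 and 3.62 untreated and at 5.44, 6.32 and 5.41 under LPS. At the group means this is 9.30 CPM against 48.7 in WT and 9.24 against 52.9 in KO. The groups did not overlap in either genotype, and mouse B was highest in every group. The log2 change was 2.39 in WT (95% confidence interval 1.54 to 3.23, adjusted p = 0.00162) and 2.52 in KO (1.67 to 3.36, adjusted p = 0.0012). Within the 4 mice that have both libraries the change ran from 2.22 to 2.70.

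Mcl1 and Bcl2l11 rose by similar amounts on the log2 scale although they act against each other. Mcl1 stood at 9.79 and 9.23 in untreated WT and at 10.30, 10.25 and 10.28 under LPS, and at 9.86 and 9.50 in untreated KO and 10.62, 10.46 and 10.53 under LPS. Its LPS libraries lay above every untreated library in either genotype. The log2 change was 0.77 in WT (0.43 to 1.10, adjusted p = 0.00862) and 0.86 in KO (0.52 to 1.20, adjusted p = 0.00422). Bcl2l11 stood at 6.36 and 6.90 in untreated WT and at 7.85, 7.46 and 7.56 under LPS, and at 7.14 and 7.07 in untreated KO and 8.46, 8.17 and 8.04 under LPS. Its groups did not overlap, and the log2 change was 0.99 in WT (0.57 to 1.42, adjusted p = 0.00742) and 1.11 in KO (0.68 to 1.54, adjusted p = 0.00369). Without the untreated library of WT mouse A, the WT change was 1.05 for Mcl1 (adjusted p = 0.000553), 2.16 for Pmaip1 (adjusted p = 0.031) and 0.72 for Bcl2l11, which was then no longer called (adjusted p = 0.11), in a fit that called 3.94% of all genes. Without the untreated library of KO mouse B, the KO changes of Mcl1 (0.68, adjusted p = 0.117) and Bcl2l11 (1.08, adjusted p = 0.0565) were no longer called either (2.48% of all genes called).

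The other BH3-only transcripts and the effectors did not pass the test. Bbc3, the transcript of PUMA, stood at 3.58 and 3.03 in untreated WT and at 3.55, 4.08 and 4.37 under LPS, with a log2 difference of 0.69 (adjusted p = 0.122), or 0.97 without untreated mouse A (adjusted p = 0.139), and its KO groups (3.22 and 3.31 against 3.69, 4.09 and 4.30) did not overlap, with a difference of 0.76 (adjusted p = 0.195). Bid was lower under LPS in each of 4 mice, by 0.29 to 0.50 on the log2 scale, with differences of -0.35 in WT (adjusted p = 0.187) and -0.44 in KO (adjusted p = 0.286). Bak1 was also lower in 4 of 4 mice, by at most 0.27. Bax differed by -0.65 in WT (adjusted p = 0.159) through a single library: untreated WT mouse A stood at 8.36 and mouse B at 7.12, against 6.88, 7.18 and 7.21 under LPS. Without that library the WT difference of Bax was -0.03, and without the untreated library of mouse B it was -1.27 and was called (adjusted p = 0.000434), in a fit that called 56.1% of all genes. In KO it was 0.11.

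Among the pro-survival members, Bcl2l1 and Bcl2 were not called under LPS in the fit of groups. Bcl2l1 stood at 6.69 and 6.14 in untreated WT and at 6.11, 6.04 and 6.41 under LPS, and in KO at 5.76 and 5.81 and then 5.84, 5.87 and 5.86. Its KO values barely moved (0.07, interval -0.26 to 0.40), and its WT difference of -0.23 became 0.04 without untreated mouse A and -0.51 without untreated mouse B, when it was called (adjusted p = 0.00757) along with 56.1% of all genes. Bcl2 was higher under LPS in all 4 mice with both libraries, by 0.08 to 0.65. The largest of these changes was that of WT mouse A, and WT mouse B changed by 0.28. With the mouse as a block, a fit that compares the libraries of each mouse with each other, Bcl2 rose in WT by 0.45 (adjusted p = 0.0488, 13.8% of all genes called). In KO the blocked difference of Bcl2 was 0.05 and was not called. The calls of Mcl1, Bcl2l11 and Pmaip1 held with the block in both genotypes (7.32% of all genes called in KO).

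Counted by separation of the libraries, 4 members were higher and 1 lower under LPS without overlap in WT (25.5% of all genes did not overlap), and 5 were higher and 2 lower in KO (25.8%). Within mice, 6 of the 9 members moved in a single direction in all 4 mice with both libraries, against 40.6% of all genes. The response to LPS was not shown to differ between genotypes for any member: 0 of 9 members were called in the interaction by limma, as were 0% of all genes, with 0 members and 221 genes at an unadjusted p under 0.05, and voom on recovered reads also called 0. Without the untreated library of WT mouse B, which leaves mouse A alone in its group, Bax (1.39, adjusted p = 0.00243) and Bcl2l1 (0.58, adjusted p = 0.0207) were called, 2 of 9 members where 38.8% of all genes were called, and without that of mouse A their values were 0.15 and 0.02. For Bcl2l11 the difference of the responses was 0.12 (interval -0.49 to 0.72), for Mcl1 0.09 (-0.38 to 0.57) and for Pmaip1 0.13 (-1.07 to 1.32).

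**Figure D2:**
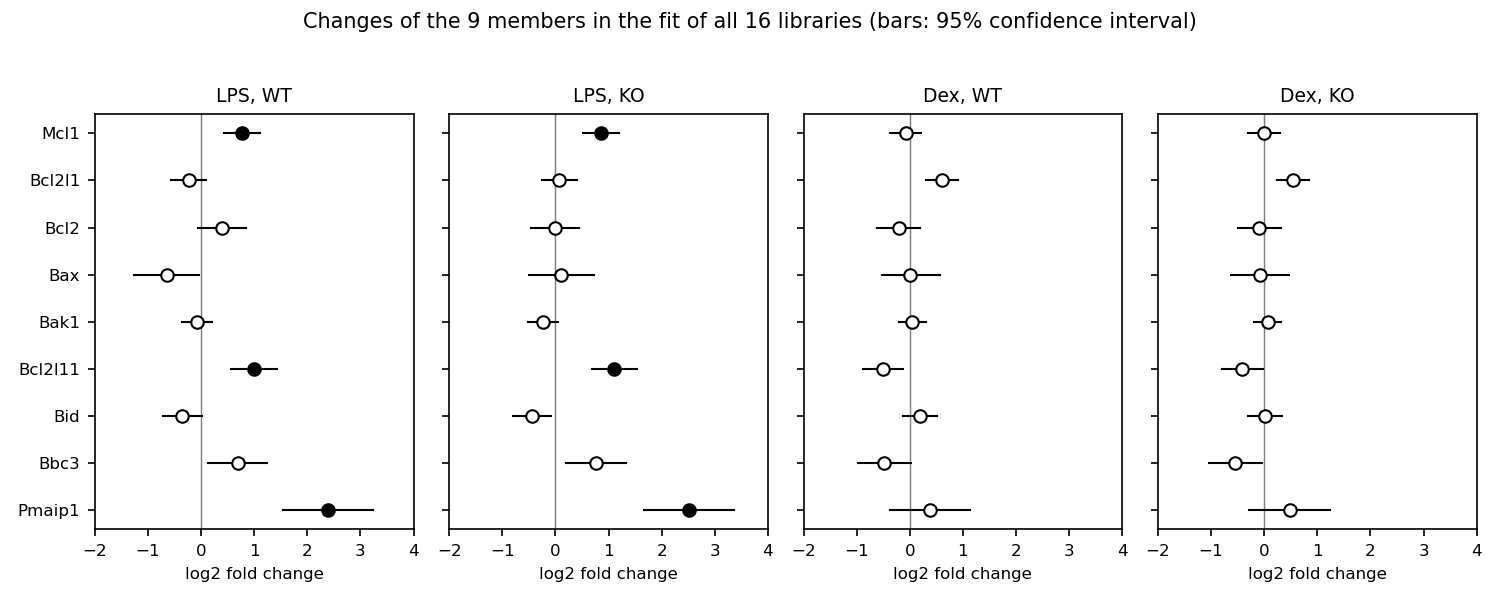
Log2 fold change of each member (rows) for LPS against untreated and for LPS + Dex against LPS in WT and NELF-B KO, from the limma fit of the 16 libraries. Bars are 95% confidence intervals and filled points passed an adjusted p of 0.05; Mcl1, Bcl2l11 and Pmaip1 are filled in both LPS panels, and no point is filled in the Dex panels of this fit, which has no block for the mouse.

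The other genes of the death pathway were read from 59 listed symbols, of which 47 have a row. Under LPS 7 rose and 1 fell in WT, where 6.91% of all genes were called. In KO 5 rose and 1 fell, where 4.01% of all genes were called. The inhibitor Cflar, whose product FLIP keeps caspase-8 inactive, rose most (2.33 in WT with adjusted p = 3.15e-06, and 2.13 in KO with adjusted p = 6.63e-06), from 6.48 and 7.16 log2 CPM in untreated WT to 9.05 to 9.29 under LPS. Birc3, a ubiquitin ligase that inhibits apoptosis downstream of the TNF receptor, rose by 1.82 and 1.34 (adjusted p = 0.00123 and 0.0139). Mdm2, which targets p53 for degradation, rose by 1.62 and 1.37 (adjusted p = 5.35e-06 and 2.82e-05). Of the other pro-survival members 3 of 6 have a row, and of these Bcl2a1b rose by 1.00 and 1.34 (adjusted p = 0.00948 and 0.00112). Reads of Bcl2a1b cannot be told apart with certainty from those of its near-identical copies, and Bcl2a1a (0.83 and 1.44) and Bcl2a1d (1.08 and 1.69) were called only with the mouse as a block. Without the untreated library of WT mouse A, the WT changes were 1.99 for Cflar, 1.20 for Birc3, 1.48 for Mdm2 and 1.35 for Bcl2a1b.

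Bmf, a BH3-only gene outside the 9 members, moved opposite to Bcl2l11 and Pmaip1 under LPS. It fell by 1.65 on the log2 scale in WT (adjusted p = 0.00269) and by 1.25 in KO (adjusted p = 0.0224) under LPS, from 3.68 and 4.62 in the 2 untreated WT libraries to 2.12 to 2.92 under LPS. Without untreated WT mouse A it fell by 2.11 in WT (adjusted p = 0.000882). Of the 10 caspases and mitochondrial effectors with a row, only Apaf1, the scaffold of the apoptosome, was called in the fit of all 16 libraries. Apaf1 was called in WT (0.93, adjusted p = 0.0175) and not in KO (0.38, adjusted p = 0.831), and the difference between the genotypes was not called. Without untreated WT mouse A, the WT difference of Apaf1 was 0.50 and was not called (adjusted p = 0.208).

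Dex was compared with LPS alone within each mouse, which asks how the glucocorticoid shifts the LPS state. Bcl2l1 was higher with Dex in all 6 mice, by 0.52 to 0.67 on the log2 scale, and Pmaip1 in all 6, by 0.35 to 0.48. Bcl2l11 was lower in all 6 mice, by 0.39 to 0.54, and Bbc3 in all 6, by 0.30 to 0.64. These 4 of 9 members compare with 19.6% of all genes that moved in a single direction in all 6 mice (9.16% higher and 10.4% lower). Mcl1, the most abundant pro-survival member, differed by at most 0.11 in any mouse.

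**Figure D3:**
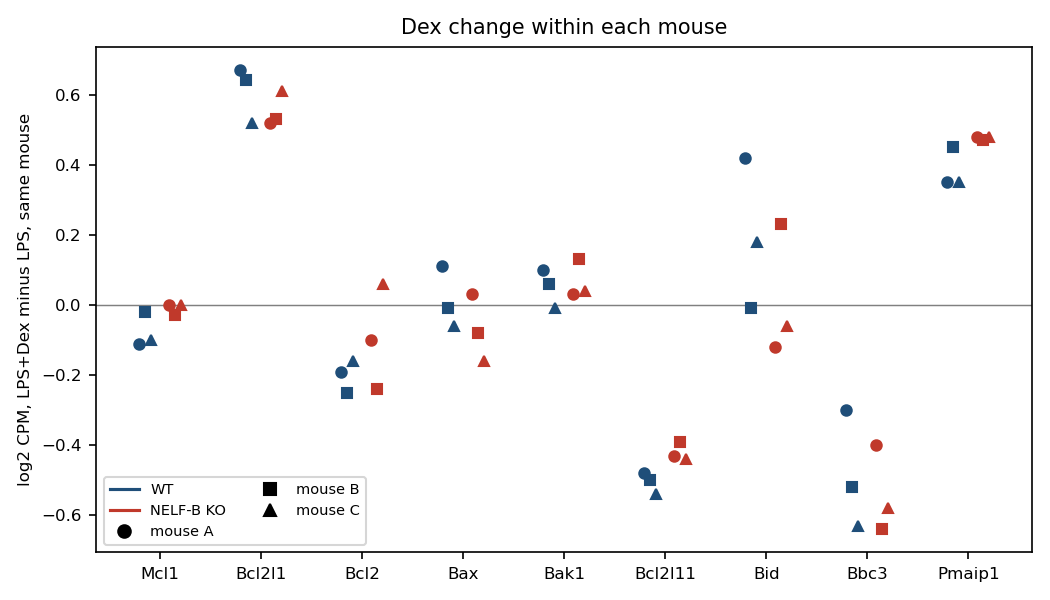
Log2 CPM in the LPS + Dex library minus the LPS library of the same mouse (vertical axis) for each member (horizontal axis), WT in blue and NELF-B KO in red, 1 symbol per mouse. The 6 mice lie above 0 for Bcl2l1 (0.52 to 0.67) and Pmaip1 (0.35 to 0.48) and below 0 for Bcl2l11 (-0.54 to -0.39) and Bbc3 (-0.64 to -0.30).

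In the fit of groups without a block, 0 of 9 members were called for Dex in either genotype (0.749% of genes were called in WT and 0.895% in KO), with 2 members in WT and 3 in KO at an unadjusted p under 0.05, and voom on recovered reads called 0 as well. The libraries of a mouse deviated together from their group means, so the fits with the mouse as a block are given beside it. Bcl2l1 stood at 6.11, 6.04 and 6.41 under LPS and at 6.78, 6.68 and 6.93 under LPS + Dex in WT, and at 5.84, 5.87 and 5.86 and then 6.36, 6.40 and 6.47 in KO. The groups did not overlap in either genotype. Its log2 change was 0.61 in WT (adjusted p = 0.0782 without the block and 0.0125 with it) and 0.55 in KO (0.113 and 0.0177). The unblocked fit also called it when either untreated WT library was left out (adjusted p = 0.0078 and 0.00779 in WT, 0.0109 each time in KO), where 1.29% of all genes in WT and 1.59% in KO were called without mouse A. The blocked fit called 2.19% of all genes in WT and 2.57% in KO.

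Pmaip1, already raised by LPS, stood higher still with Dex: 5.21, 6.04 and 5.57 under LPS became 5.56, 6.49 and 5.92 in WT, and 5.44, 6.32 and 5.41 became 5.92, 6.79 and 5.89 in KO. The groups overlap in both genotypes, and mouse B was the highest in both treatments. The blocked change was 0.38 in WT (adjusted p = 0.0872) and 0.48 in KO (adjusted p = 0.0289).

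Bcl2l11 went the other way, with 7.85, 7.46 and 7.56 under LPS against 7.37, 6.96 and 7.02 under LPS + Dex in WT, and 8.46, 8.17 and 8.04 against 8.03, 7.78 and 7.60 in KO. The difference was -0.51 in WT and -0.42 in KO and was not called with or without the block over the 16 libraries (adjusted p = 0.283 and 0.475 with it). Its groups were separate in both genotypes, if narrowly. Over the 9 members, Bcl2l1 was higher and Bcl2l11 and Mcl1 were lower with Dex without overlap in WT (5.97% of all genes did not overlap), and Bcl2l1 was higher and Bcl2l11 lower in KO (9.67%). Bbc3 stood at 3.55, 4.08 and 4.37 under LPS and at 3.25, 3.56 and 3.74 under LPS + Dex in WT, and at 3.69, 4.09 and 4.30 and then 3.30, 3.44 and 3.72 in KO, a difference of -0.48 and -0.54 (adjusted p = 0.487 and 0.306 with the block).

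A blocked fit limited to the 12 LPS and LPS + Dex libraries, chosen after seeing the data because it leaves out the untreated library that stood apart, called 4 of 9 members in each genotype, while 10.4% of all genes were called in WT and 14.1% in KO. In it Bcl2l1 rose by 0.61 (adjusted p = 3.24e-07) in WT and by 0.55 (6.53e-07) in KO, and Pmaip1 rose by 0.38 (1.26e-05) and 0.48 (1.55e-06). Bcl2l11 fell by 0.51 (2e-07) and by 0.42 (8.97e-07), and Bbc3 fell by 0.48 (0.000691) and by 0.54 (0.000237). Thus among the BH3-only members 2 fell and 1 rose with Dex in this fit, and among the pro-survival members Bcl2l1 alone was called. The falls of Bcl2l11 and Bbc3 were not called in the fits of all 16 libraries, with or without the block. Bmf, a BH3-only gene outside the 9 members, rose with Dex, as given below. Mcl1, Bcl2, Bax, Bak1 and Bid were not called in this fit.

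The Dex response was not shown to differ between the genotypes for any member. In the 12-library fit the difference of the responses, KO minus WT, was -0.06 for Bcl2l1 (95% confidence interval -0.18 to 0.06), 0.09 for Bcl2l11 (-0.01 to 0.19), -0.06 for Bbc3 (-0.29 to 0.17) and 0.09 for Pmaip1 (-0.02 to 0.21), with 0 of 9 members and 0.0104% of genes called. Among the 47 other pathway genes, Bmf rose with Dex in WT by 1.32 (adjusted p = 0.0322 without the block). In KO it rose by 1.08 (adjusted p = 0.0892 without the block and 0.00338 with it). Its level under LPS + Dex in WT was 3.51 to 4.12 log2 CPM. Of the untreated WT libraries, at 3.68 and 4.62, only the lower lay within that range. In KO its level under LPS + Dex was 4.15 to 4.48, against 4.46 to 4.56 untreated. Mdm2 differed by -0.48 and -0.47 and fell with the block in both genotypes. In the 12-library fit these 2 genes were the ones called in WT (4.26% of the 47, against 10.4% of all genes), and 8 pathway genes rose and 6 fell in KO (29.8% of the 47, against 14.1% of all genes). No pathway gene was called for a difference between the genotypes in this fit.

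Loss of NELF-B was compared within each treatment. In the fit of groups 0 of 9 members were called in untreated cells (0.0104% of all genes called), under LPS (0.146%) or under LPS + Dex (0.114%), with 3, 2 and 3 members at an unadjusted p under 0.05 and 0 called by voom. The sizes and separations are therefore given as values. Bcl2l11 had the largest difference of the 9 members in treated cells: under LPS the KO libraries stood at 8.04 to 8.46 and the WT libraries at 7.46 to 7.85, a difference of 0.60 (interval 0.21 to 0.98, adjusted p = 0.245). Under LPS + Dex they stood at 7.60 to 8.03 and 6.96 to 7.37, a difference of 0.69 (0.30 to 1.07, adjusted p = 0.14).

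**Figure D4:**
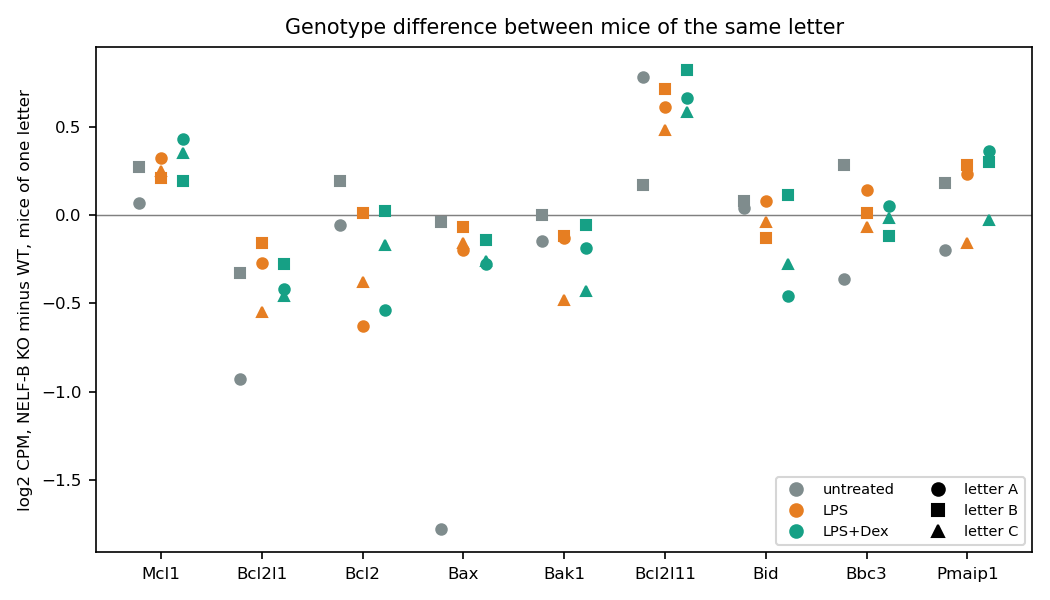
Log2 CPM in NELF-B KO minus WT (vertical axis) for each member (horizontal axis), between the KO and the WT mouse of the same letter; colours give the treatment and symbols the letter. All 8 differences of Bcl2l11 are above 0 (0.17 to 0.82), all 8 of Bcl2l1 are below 0 (-0.93 to -0.16), and the lowest Bax point (-1.78) is the untreated mice of letter A. Points of one letter come from the same pair of mice and are not independent.

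The letters B and C also stand for batches as far as the labels tell. The B mice of both genotypes, and likewise the C mice, share a printed date or run on at least 1 library each. The A mice are the remaining pair and may not be a batch. Between mice of the same letter, Bcl2l11 was higher in KO by 0.61, 0.71 and 0.48 under LPS and by 0.66, 0.82 and 0.58 under LPS + Dex for letters A, B and C. With the letter as a term in the fit, its adjusted p was 0.0869 under LPS and 0.0508 under LPS + Dex, and no member was called in any treatment (0.0312% of all genes in untreated cells, 1.09% under LPS and 1.77% under LPS + Dex). In untreated cells the difference was 0.78 for letter A and 0.17 for letter B, and 0.21 in the fit without untreated WT mouse A.

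Mcl1 was also higher in KO: the treated KO libraries stood at 10.42 to 10.62 and the treated WT libraries at 10.18 to 10.30, without overlap, with differences of 0.26 under LPS (adjusted p = 0.905) and 0.33 under LPS + Dex (adjusted p = 0.546). In mice of the same letter these differences were 0.32, 0.21 and 0.25, and 0.43, 0.19 and 0.35. Bcl2l1 was lower in KO in all 3 treatments without overlap, by 0.63 untreated, 0.33 under LPS and 0.39 under LPS + Dex (adjusted p = 0.324, 0.589 and 0.355). Without untreated WT mouse A its untreated difference was -0.35. Untreated Bax also separated, at 6.59 and 7.08 in KO and 8.36 and 7.12 in WT, and its difference of -0.91 became -0.29 without that library. Without untreated WT mouse B instead, the untreated differences of Bax (-1.53), Bcl2l1 (-0.90) and Bcl2l11 (0.75) were called (adjusted p = 0.000257, 0.000374 and 0.0173), 3 of 9 members in a fit that called 50.5% of all genes.

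In all, 3 of 9 members separated by genotype without overlap in each treatment, where 29.4% of all genes did so in untreated cells, 13.7% under LPS and 17.8% under LPS + Dex. The untreated count is close to that of all genes. The group means of Bbc3 and Pmaip1 differed by at most 0.21 between the genotypes in any treatment. Between mice of the same letter, the differences ran from -0.36 to 0.28 for Bbc3 and from -0.20 to 0.36 for Pmaip1. In the fit of groups the intervals run from -0.93 to 0.97 for Pmaip1 and from -0.65 to 0.57 for Bbc3. With the letter as a term, those of Pmaip1 were -0.33 to 0.31 untreated, -0.15 to 0.38 under LPS and -0.05 to 0.48 under LPS + Dex. The widest for Bbc3 was then -0.50 to 0.41, in untreated cells. Genotype differences within these intervals are not excluded. Among the 47 other pathway genes 0 were called for genotype in any treatment.

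Markers of other cells were read beside these differences. The summed level of the 4 fibroblast collagen and decorin genes, all of which have a row, was 49.2 to 83.6 CPM in untreated WT, 64.4 to 111 under LPS and 94.4 to 122 under LPS + Dex, and 81.0 to 89.7, 99.7 to 125 and 105 to 145 in KO. S100a8, the only one of 8 neutrophil and granulocyte precursor markers with a row, ranged from 5.46 to 27.1 CPM in WT and from 11.8 to 41.5 in KO. Itgax, 1 of 3 dendritic markers, ranged from 7.60 to 19.5 CPM in WT and from 5.88 to 11.2 in KO, and Cd79b, 1 of 4 B cell markers, from 13.4 to 36.6 and from 14.0 to 39.7. None of the listed T cell, erythroid or mast cell markers has a row. The part of other cells in the genotype and treatment differences was not tested, and in bulk RNA fewer cells that express a gene and less RNA per cell cannot be told apart.

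Pro-survival and pro-death transcripts were finally set against each other within each mouse, as the change of the mean log2 CPM of the 3 pro-survival members minus the change of the mean of the 6 pro-death members. Transcript length cancels in such a change, so that only changes are given here. The balance was lower under LPS than untreated in all 4 mice (-0.36 to -0.07) and higher with Dex than with LPS alone in all 6 (0.09 to 0.34). The mean changes of -0.23 and 0.20 rest on single members, since the first became 0.16 without Pmaip1 and -0.01 without Bcl2l1, and the second became -0.03 without Bcl2l1.

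**Figure D5:**
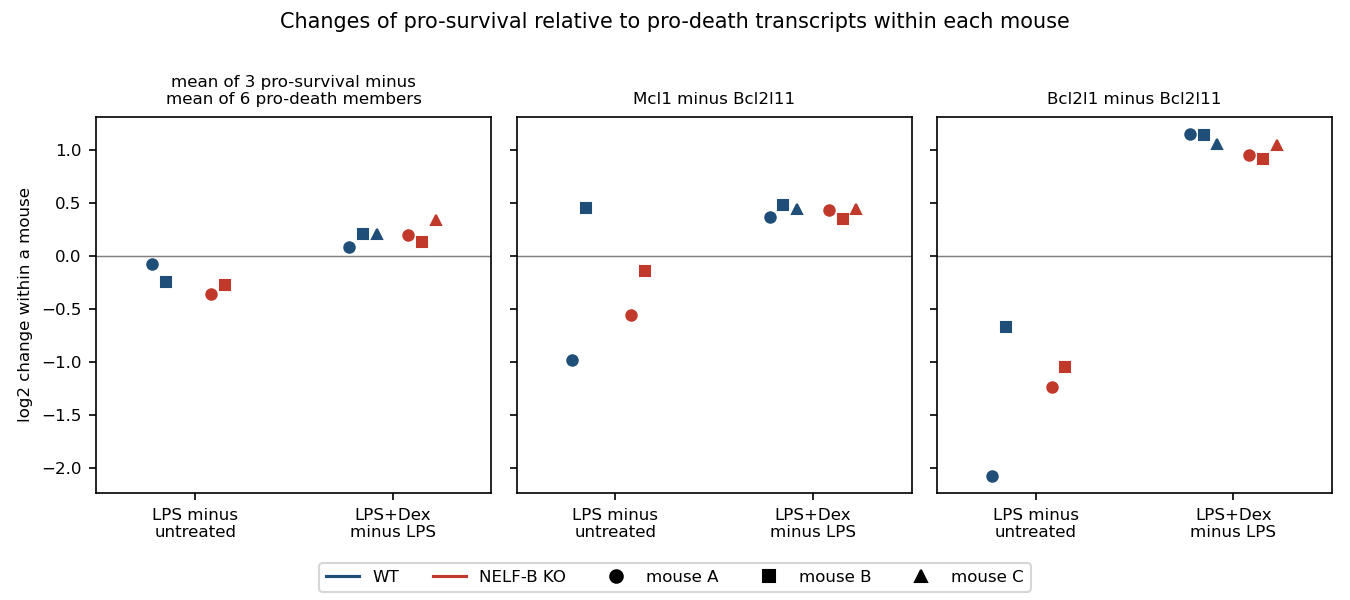
Log2 change within a mouse (vertical axis) for LPS minus untreated and LPS + Dex minus LPS (horizontal axis) of 3 differences: the mean of 3 pro-survival minus 6 pro-death members, Mcl1 minus Bcl2l11, and Bcl2l1 minus Bcl2l11. Each symbol is a mouse, WT in blue and NELF-B KO in red; Bcl2l1 minus Bcl2l11 lies above 0 with Dex in each of the 6 mice (0.91 to 1.15).

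Of the 18 pairs of a pro-survival and a pro-death member, those of Bcl2l11 with Bcl2l1 and Mcl1 are described because BIM binds both products. Some pairs with Bbc3 and Pmaip1 are set beside them. Bcl2l1 minus Bcl2l11 was lower under LPS in all 4 mice, with changes of -2.07 to -0.67, and higher with Dex in all 6, by 0.91 to 1.15. Bcl2l1 minus Bbc3 rose with Dex by a similar amount, 0.92 to 1.19. Mcl1 minus Bcl2l11 had no shared direction under LPS (-0.98 in mouse A and 0.45 in mouse B of the WT, -0.55 and -0.14 in the KO), and was higher with Dex in all 6 mice, by 0.35 to 0.48. Pairs with Pmaip1 did not all rise with Dex. Mcl1 minus Pmaip1 was lower under LPS in all 4 mice (-1.88 to -1.58) and lower with Dex in all 6 (-0.50 to -0.45). Bcl2 minus Pmaip1 was also lower with Dex (-0.70 to -0.42), and Bcl2l1 minus Pmaip1 was higher (0.04 to 0.32). These pairs use the same values as the comparisons above and add no separate evidence.

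The genes whose log2 CPM followed each called member most closely over the 16 libraries were Srgn (Pearson r 0.944), Rnf19b (0.934) and Id3 (0.933) for Mcl1, Brd2 (0.962), Sowahc (0.94) and Rnf19a (0.926) for Bcl2l11, and Mob3c (0.979), Ccl9 (0.977) and Ehd1 (0.974) for Pmaip1. These correlations describe libraries that share treatments and mice.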

How the data were processed

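RNA-seq values were used for 16 libraries of BMDM from 6 mice. The authors mapped 50 bp paired reads to mm10 in CLC Bio Genomic Workbench, counted those unique to exons, scaled by weighted trimmed mean in edgeR and deposited log2 CPM per gene; the labels also name CASAVA 1.8 and FastQC, and the filter that left 9614 genes is not given in the sources used here. Their deposited p-value and FDR columns of pairwise comparisons were not used.

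The log2 values were fitted by limma 3.58.1 (lmFit on 6 group means, eBayes with trend, two-sided, R 4.3.3), adjusted by Benjamini-Hochberg over the 9614 genes and called at 0.05. In every library 100.0% of values under 3 CPM were whole reads within 0.1 read, and depth was recovered from these steps (floor -5.15 log2 CPM). Libraries were paired by the mouse number in the labels: deviations from group means correlated with r of 0.78 to 0.94 between LPS and LPS + Dex libraries of a mouse and 0.19 to 0.82 between untreated and LPS. Blocked fits used the mouse, or for genotype the letter of the mice, as a fixed term. Letter A may not be a batch. The fit was tested on simulated data in which libraries varied independently, without shared mice or a library that stood apart. That test does not show how these features affect the calls. Gene positions and lengths are from GENCODE vM21, promoters from RefSeq, with Python 3.11.15 and pandas 2.3.3.

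Members and pathway lists were chosen with earlier results of these data known. The genes named are the 9 members, from the pathway lists up to 3 called genes per direction with the largest change plus genes named for a count, the 3 genes most correlated with each called member, and the check genes. Among these checks Tnf and Il1b rose by 5.96 and 7.60 with LPS in WT, and Tsc22d3 and Per1 by 3.80 and 2.15 with Dex. The position of Pmaip1 is not reported here.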

Additional observations from a re-analysis of the deposited data

Results flagged for a closer look

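Bcl2l1 was flagged because its LPS change had opposite signs in the genotypes. Both WT mice with both libraries were lower under LPS (mean -0.34 on the log2 scale) and both KO mice were higher (mean 0.07). The difference itself was tested and was not called, with an interaction of 0.30 (adjusted p = 0.69 in limma) and 0.37 with the mouse as a block (adjusted p = 0.414). Without the untreated library of WT mouse A, the interaction was 0.02.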

How the results depend on the processing

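Counts of members called depended on the block and on the untreated libraries. For LPS in WT, 3 members became 1 with only the groups compared in the fit (1.45% of all genes called). With the replicate block they became 6 as a random effect (2420 of all genes called, 25.2%, against 664) and 4 as a fixed term (13.8%). For Dex in WT, 0 became 1 with the random block over 16 libraries (2% of all genes) and 1 with the fixed block (2.19%). It became 1 at an FDR of 0.1 with a 1.3-fold threshold (0.988%) and 4 in the 12-library block (10.4%). For Dex in KO, 0 became 1 with only the groups compared (1.36%), 1 with the random block (2.49%), 2 with the fixed block (2.57%) and 4 in the 12-library block (14.1%). The block changed no other call of a member except Bid under LPS, called with the random block in both genotypes, and Bbc3 likewise in WT. Leaving out each library in turn gave 2 to 5 members for LPS in WT, 1 to 3 for LPS in KO, 0 to 1 for Dex in either genotype, 0 to 3 for genotype in untreated cells and 0 to 2 for the LPS interaction. The highest counts came without untreated WT mouse B, which leaves mouse A, the library that stood apart, alone in its group, with its spread assumed to be that of the other groups: LPS in WT then also called Bax (-1.27) and Bcl2l1 (-0.51), untreated genotype called Bax (-1.53), Bcl2l1 (-0.90) and Bcl2l11 (0.75), and the interaction called Bax (1.39) and Bcl2l1 (0.58), where 56.1%, 50.5% and 38.8% of all genes were called. Voom on recovered reads, log2(CPM + 1), a filter at mean log2 CPM above 1 and centring on the median gene kept the number of members called in each comparison. No called value of a member changed sign. The untreated WT median level was 5.19 on log2(CPM + 1) against 5.15. The within-library difference changed under LPS by -0.48 without Mcl1, -0.01 without Bcl2l1, -0.41 without Bax, -0.38 without Bak1, -0.43 without Bid and 0.16 without Pmaip1, and with Dex by -0.03 without Bcl2l1, 0.34 without Bcl2, 0.11 without Bbc3 and 0.30 without Pmaip1. Groups of 2 or 3 mice limit what can be called.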
